A study of Mus musculus with 2 samples.

Results

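The 7 genes described here, Gzma, Gzmb, Gzmk, Prf1, Nkg7, Fasl and Ifng, are effector genes of cytotoxic lymphocytes. They were chosen by symbol from the 34097 genes listed in both libraries, and all 7 symbols were found, each with 1 identifier. Single-cell RNA was counted with the 10x Genomics platform in 2 libraries of mouse tumour tissue. Their labels give the tissue as a lung cancer xenograft and the cells as LLC, a mouse line known as Lewis lung carcinoma. The control library came from tumour tissue with the label control. The knockdown library came from tumour tissue whose label names a short hairpin RNA (shRNA) against GFPT2, an enzyme at the entry of the hexosamine pathway. Both libraries share the line and the tissue label. The sex, age and strain of the mice and the number of mice per library are not given in the sources used here. The vector of the control is not given either. With 1 library per group there were no replicates and no test was run, so every interval below covers counting error only.

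Cytotoxic T cells and natural killer (NK) cells kill by releasing granules in which perforin (Prf1) opens the target membrane and granzymes, a family of serine proteases, enter and cleave target proteins. Gzmb is the granzyme that cuts after aspartate and activates caspases, while Gzma and Gzmk are tryptase-like granzymes. Nkg7 is a granule membrane protein that takes part in degranulation. Fasl is the death ligand that engages Fas on a target cell, and Ifng is the type II interferon, which raises antigen presentation in nearby cells.

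The sequences before the start sites of Gzma, Gzmk, Gzmb and Prf1 are shown because most of the results on granule genes below turn on these 4. In RefSeq (build GRCm38.p6) the start sites of Gzma and Gzmk lie 79.98 kb apart on chromosome 13. Gzmb lies on chromosome 14, 27.7 kb from Gzmc and 50.9 kb from Gzmf. Nkg7 lies on chromosome 7, Fasl on chromosome 1, and Prf1 and Ifng lie far apart on chromosome 10. The sequences below are the 250 bases before the start site, read 5′ to 3′ on the gene's strand, with capitals for matches to the short motifs described after them.
Gzma, chr13:113100982-113101231, minus strand: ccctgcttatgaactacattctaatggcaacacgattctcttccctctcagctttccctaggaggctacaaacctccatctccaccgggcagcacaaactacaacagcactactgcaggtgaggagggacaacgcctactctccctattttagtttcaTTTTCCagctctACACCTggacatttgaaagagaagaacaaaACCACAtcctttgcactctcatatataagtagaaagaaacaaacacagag
Gzmk, chr13:113180966-113181215, minus strand: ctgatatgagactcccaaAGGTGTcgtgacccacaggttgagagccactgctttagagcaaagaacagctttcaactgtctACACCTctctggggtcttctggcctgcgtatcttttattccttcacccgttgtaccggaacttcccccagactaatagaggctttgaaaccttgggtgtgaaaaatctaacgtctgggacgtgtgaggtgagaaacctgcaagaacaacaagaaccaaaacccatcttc
Gzmb, chr14:56262335-56262584, minus strand: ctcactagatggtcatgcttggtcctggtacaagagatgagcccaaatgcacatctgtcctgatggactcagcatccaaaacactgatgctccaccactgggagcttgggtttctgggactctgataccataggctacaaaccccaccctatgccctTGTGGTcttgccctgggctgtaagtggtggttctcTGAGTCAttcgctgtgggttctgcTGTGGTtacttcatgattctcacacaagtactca
Prf1, chr10:61297586-61297835, plus strand: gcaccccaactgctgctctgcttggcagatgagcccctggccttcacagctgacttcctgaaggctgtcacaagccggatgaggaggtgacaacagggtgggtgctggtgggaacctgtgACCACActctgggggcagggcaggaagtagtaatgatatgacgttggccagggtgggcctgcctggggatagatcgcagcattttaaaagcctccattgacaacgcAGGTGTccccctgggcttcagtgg
Both strands were searched for the RUNX motif TGTGGT, the core of the T-box motif AGGTGT, the AP-1 motif TGANTCA, the cyclic AMP response element TGACGTCA and the NFAT core GGAAAA. The RUNX letters were found in 4 of the 7 genes (Gzma, Gzmb, Prf1 and Nkg7), against 14.05% of 32851 windows of the same length before RefSeq genes. The T-box core was found in 4 of 7 (Gzma, Gzmk, Prf1 and Nkg7), against 11.8%. The AP-1 letters were found in Gzmb alone among the 7 genes, against 6.75% of all windows, and the cyclic AMP response element in none of them, against 1.55%. The NFAT core was found in Gzma and Fasl, against 20.4%. These matches describe letters in the windows, and no binding was measured.

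The libraries held 11977 control and 12853 knockdown cells, with 165824226 and 138402860 unique molecular identifiers (UMIs, each standing for 1 counted transcript molecule), and shared 37 cell barcodes. After filters on cells and doublets, 10663 and 11450 cells were kept. Over them Gfpt2, which checks the labels, counted 248 control and 67 knockdown UMIs, or 1.78 (1.57 to 2.02) and 0.563 (0.437 to 0.715) CPM. CPM divides the UMIs that a group of cells holds for a gene by all UMIs of that group and multiplies by 1000000. Lymphocytes were taken by UMI rules. CD8 T cells (at least 2 UMIs of Cd3d, Cd3e and Cd3g, at least 1 of Cd8a and Cd8b1, none of Cd4) numbered 484 in the control tumour and 412 in the knockdown tumour. CD4 T cells (the same Cd3 rule, at least 1 Cd4 UMI, no Cd8 UMI) numbered 38 and 29. NK cells (at least 2 UMIs of Ncr1, Klrb1c and Klre1, no Cd3 UMI) numbered 52 and 62. Other Cd3-positive cells, 267 and 225, were nearly all cells in which neither Cd4 nor Cd8 was detected (262 and 224). Of the 8 T cell markers, Cd3d, Cd3e and Cd3g were rule genes, as were Ncr1, Klrb1c and Klre1 of the 6 NK markers. Outside the rules, Trac, Trbc1, Trbc2, Cd2 and Lck were detected in each T cell class, and Klra8, Eomes and Tyrobp in the NK class. The NK markers summed to 299.9 and 389.3 CPM in control and knockdown CD8 T cells. In NK cells the T cell markers summed to 712.1 and 715.5 CPM. Markers of other cell types were also present, and Gzma ratios without the cells that carried macrophage UMIs are given with the results. The 6 macrophage markers summed to 2419 and 3621 CPM in control and knockdown CD8 T cells, and to 3007 and 3902 CPM in other Cd3-positive cells. In NK cells they summed to 290.4 and 4254 CPM, with Csf1r and Adgre1 at 0 in the control NK cells, and 1 of the 62 knockdown NK cells held 37.4% of these UMIs. The 4 tumour or stroma markers summed to 985 and 761.5 CPM in CD8 T cells, 224.9 and 430.9 CPM in NK cells, 508.7 and 675.7 CPM in CD4 T cells and 1222 and 1013 CPM in other Cd3-positive cells. The part of these markers' cells in the values below was not tested.

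Among the 7 genes, the 2 libraries differed most in CD8 T cells in Gzma, which was lower in the knockdown library, and in Prf1, which was higher. Gzmb, Nkg7, Fasl and Ifng were higher there by less than 1.5-fold, and Gzmk was not distinguishable between the libraries at this depth. So 1 of the 7 genes was higher past 1.5-fold, against 5.68% of the 8612 genes with at least 50 UMIs in this class, and 1 of 7 was lower, against 2.58%. The count of higher genes depended on how doublets were called: with the own threshold of Scrublet, a doublet caller, Gzmb (0.66), Nkg7 (0.74), Fasl (1.01) and Ifng (0.81) passed 1.5-fold as well as Prf1. The share of all genes past 1.5-fold was not computed with that threshold. The 7 genes had a median log2 ratio of 0.33, beside 0.06 over all genes tested. The 8 T cell markers together had a log2 ratio of 0.08 and the Cd8 pair 0.28. The Cd8 pair and Cd3d, Cd3e and Cd3g were used to select these cells, so these ratios are no independent check of the class. Ratios are knockdown over control throughout, with the range that the pair of 95% Poisson intervals allows.

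Gzma had 1032 UMIs in 90 of 484 control CD8 T cells and 265 UMIs in 31 of 412 knockdown CD8 T cells. Its level was 405 CPM (380.3 to 430.1) for control cells against 132 CPM (117 to 149) for knockdown cells, giving a log2 ratio of -1.61 (-1.88 to -1.35). The 2 counting intervals did not overlap, and the knockdown library was the low one. The share of CD8 T cells with a Gzma UMI was 18.6% (15.2 to 22.4, exact Clopper-Pearson) for control against 7.52% (5.17 to 10.5) for knockdown cells. With every cell thinned to 2000 UMIs, which left out 94 control and 97 knockdown cells, the shares were 15.9% and 4.44%. Within Gzma-positive cells the median was 6 UMIs for control against 5 for knockdown cells. A few cells carried much of the message: the 10 highest cells held 43.02% of the control and 72.1% of the knockdown UMIs, a clustering that a Poisson interval does not cover. The ratio lay between -2.76 and -1.11 in 12 alternative analyses, all on the same side. Without CD8 T cells that carried at least 2 macrophage UMIs it was -1.32, and without those with an NK gene UMI (146 control and 147 knockdown cells, holding 24.6% and 40.4% of the Gzma UMIs) it was -1.90.

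Gzmk, on the same chromosome as Gzma, had 186 control and 120 knockdown UMIs in CD8 T cells. Its level was 72.9 CPM (62.8 to 84.2) for control cells against 60.0 CPM (49.7 to 71.7) for knockdown cells, giving a log2 ratio of -0.28 (-0.76 to 0.19). The intervals overlapped, and 2 of 12 alternatives gave a ratio above 0. A Gzmk UMI was found in 24.8% (21.01 to 28.9) of control and 18.7% (15.04 to 22.8) of knockdown CD8 T cells.

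Gzmb had 1125 UMIs in 237 control CD8 T cells and 1111 UMIs in 205 knockdown CD8 T cells. Its level was 441 CPM (415.7 to 467.6) for control cells against 555 CPM (523 to 588.8) for knockdown cells, giving a log2 ratio of 0.33 (0.16 to 0.50). The share of positive cells was 48.97% (44.4 to 53.5) for control against 49.8% (44.8 to 54.7) for knockdown cells, and these intervals overlapped almost entirely. A single knockdown cell held 141 Gzmb UMIs, 12.7% of its library's total, against a highest control cell with 40.

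Prf1 had 440 UMIs in 142 control CD8 T cells and 780 UMIs in 155 knockdown CD8 T cells. Its level was 172.5 CPM (157 to 189) for control cells against 389.8 CPM (362.9 to 418) for knockdown cells, giving a log2 ratio of 1.18 (0.94 to 1.42). The intervals did not overlap, and the ratio lay between 1.03 and 1.60 in 12 alternatives. The share of positive cells was 29.3% (25.3 to 33.6) for control against 37.6% (32.9 to 42.5) for knockdown cells, and after thinning 22.05% and 32.1%. The highest cells held 36 control and 50 knockdown UMIs, or 8.18% and 6.41% of the totals.

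**Figure D1:**
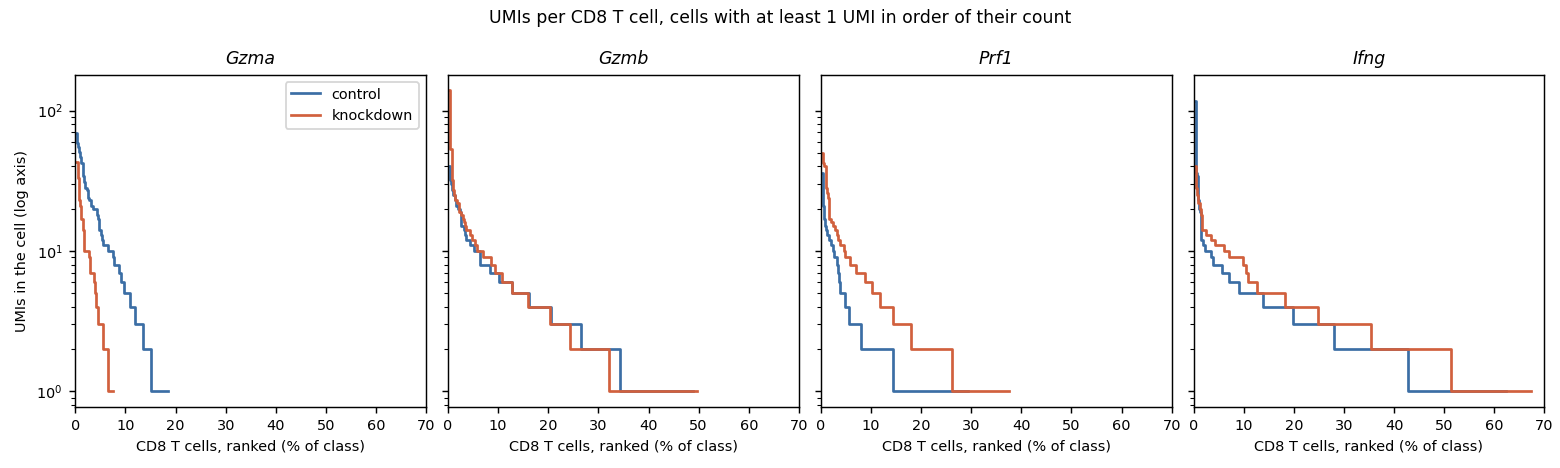
UMIs per CD8 T cell (log axis) against the rank of the cell, as a percentage of the class, for Gzma, Gzmb, Prf1 and Ifng in the control and the knockdown library. The Gzma curve of the knockdown library ends at 7.52% of cells and that of the control library at 18.6%, the Gzmb curves lie close together over most of their length, and the Prf1 curve of the knockdown library lies above that of the control library.

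Nkg7 and Ifng had ratios under 1.5-fold in CD8 T cells and passed it with Scrublet's own threshold, as given above, while Fasl lay just under it. Nkg7 was detected in 96.9% of control and 96.6% of knockdown CD8 T cells, with 3518 and 3463 UMIs. Its level was 1379 CPM (1334 to 1426) for control cells against 1730.4 CPM (1673 to 1789) for knockdown cells, giving a log2 ratio of 0.33 (0.23 to 0.42). Fasl had 139 and 162 UMIs, or 54.5 CPM (45.8 to 64.4) for control cells against 80.95 CPM (68.96 to 94.4) for knockdown cells, giving a log2 ratio of 0.57 (0.10 to 1.04). It passed 1.5-fold in 6 of 12 alternatives, at 0.63 to 1.01. A Fasl UMI was found in 23.4% (19.7 to 27.4) of control and 32.5% (28.02 to 37.3) of knockdown cells, and no cell of either library held more than 3 of them. Ifng had 1135 and 1145 UMIs, or 445 CPM (419.5 to 471.7) for control cells against 572 CPM (539.5 to 606.3) for knockdown cells, giving a log2 ratio of 0.36 (0.19 to 0.53). The share with Ifng was 62.4% (57.9 to 66.7) for control against 67.2% (62.5 to 71.8) for knockdown cells, so its intervals overlapped for the share and not for the level. The highest Ifng cell held 117 of the control UMIs and 40 of the knockdown UMIs.

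**Figure D2:**
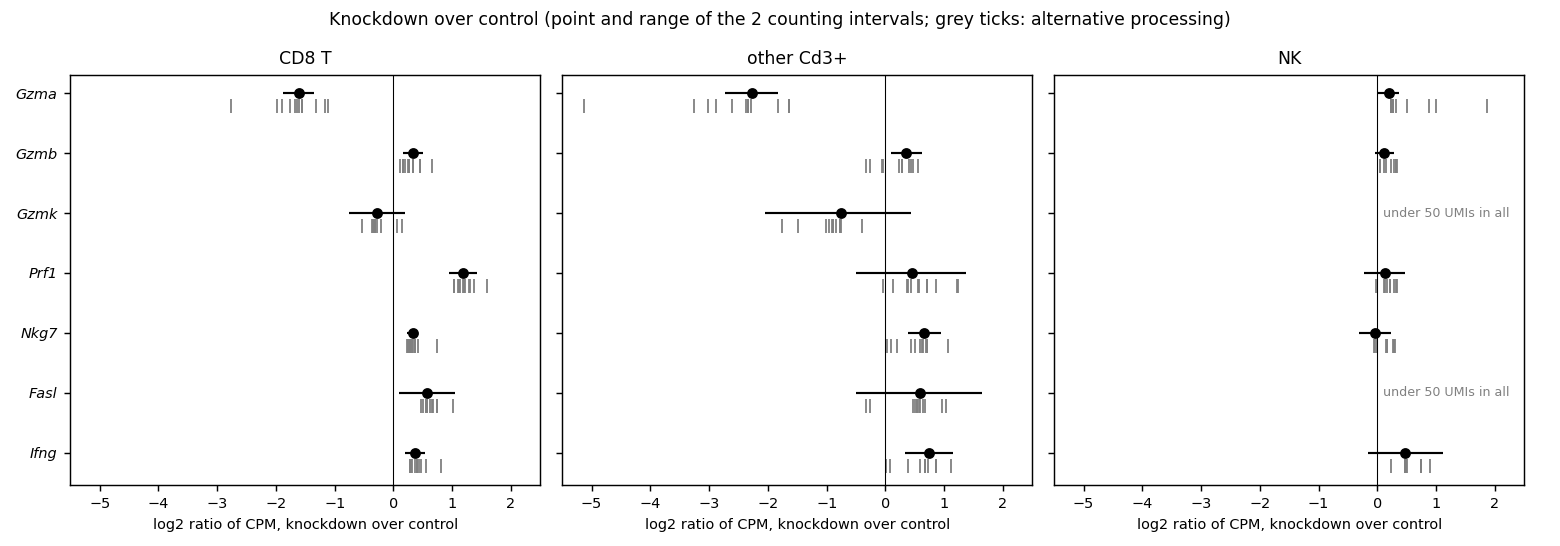
Log2 ratio of CPM, knockdown over control, for the 7 genes in CD8 T cells, other Cd3-positive cells and NK cells. Points are the values of the text with the range of the 2 counting intervals, and grey ticks are the alternative analyses. Gzma lies left of 0 in both T cell classes under every alternative and right of 0 in NK cells.

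The 7 genes were read against cells that should lack them, because free RNA in the suspension gives stray UMIs. In macrophages (2627 control and 2276 knockdown cells, median 6259 and 5139.5 UMIs, against 3212.5 and 3086 in CD8 T cells) no effector gene exceeded 2.29 CPM, and the highest share of positive cells was 1.45%, for Nkg7 in the knockdown library. Gzma was at 1.72 and 1.32 CPM in macrophages, in 1.14% and 0.703% of the cells. In cells with no UMI of the leukocyte genes searched, Gzma was found in 1.52% of control and 1.16% of knockdown cells. The shares in CD8 T and NK cells lay above these values for every effector gene except Gzmk in knockdown NK cells. The stray level itself was higher in the knockdown library for 3 effector genes in the cells with no leukocyte gene (median 16143.5 control and 11348 knockdown UMIs). Gzmb was at 0.751 and 1.56 CPM there, Nkg7 at 1.18 and 2.16, and Ifng at 0.556 and 0.997, each far below the lymphocyte classes.

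**Figure D3:**
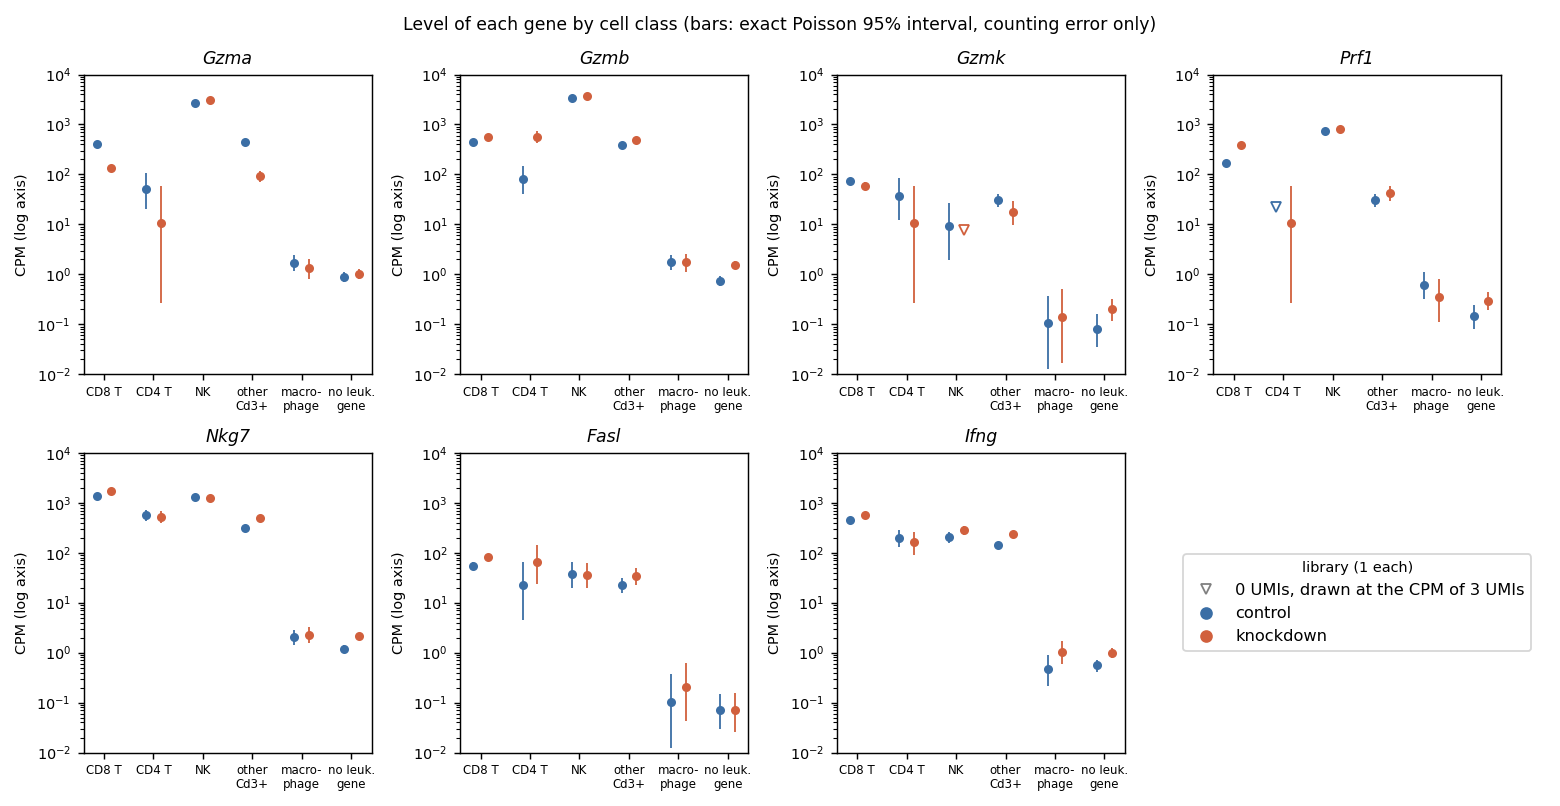
CPM (log axis) of the 7 genes in the 4 lymphocyte classes, in macrophages and in cells with no leukocyte gene, for the control and the knockdown library, with exact Poisson 95% intervals; open triangles mark 0 UMIs, drawn at the CPM of 3 UMIs. Macrophages and cells with no leukocyte gene stay at or under 2.29 CPM, and Gzma and Gzmb are highest in NK cells.

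The classes held the granule genes in different proportions. For Gzma the order of levels in the control library was NK cells (2714 CPM), other Cd3-positive cells (441 CPM), CD8 T cells (405 CPM) and CD4 T cells (51.6 CPM), and the counting intervals of the middle pair overlapped. In the knockdown library it was NK cells (3108 CPM), CD8 T cells (132 CPM), other Cd3-positive cells (91.4 CPM) and CD4 T cells (10.7 CPM, from 1 UMI). Prf1 was highest in NK cells, at 730.8 and 796.5 CPM, then in CD8 T cells, while other Cd3-positive cells had 30.8 and 41.9 CPM. Gzmk was highest in CD8 T cells in both libraries, with counting intervals that overlapped those of the few CD4 T cells. NK cells had 3 Gzmk UMIs in the control library and none in the knockdown library (0 of 62 cells, which by the limit of 3 counts allows a share of cells with a UMI of up to 4.84%). Nkg7 was at 1302 CPM (1180 to 1434) and 1261 CPM (1151 to 1379) in control and knockdown NK cells. The first interval overlapped that of control CD8 T cells, and the second lay below that of knockdown CD8 T cells. Ifng was higher in CD8 T cells than in NK cells in both libraries.

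In NK cells Gzma and Ifng passed 1.5-fold under some alternatives, and no effector gene passed it in the analysis as described. Of the 7 genes, 5 reached 50 UMIs in this class, and 0 of these 5 were higher and 0 lower, against 6.8% and 7.73% of 2353 genes tested. Gzma had 869 UMIs in 27 control NK cells and 1190 UMIs in 35 knockdown NK cells, a log2 ratio of 0.20 (0.02 to 0.38). The 10 highest NK cells held 82.3% of the control and 59.5% of the knockdown Gzma UMIs. Left without the cells that carried at least 2 macrophage UMIs (16 of 52 control and 27 of 62 knockdown NK cells), the Gzma ratio was 1.87, and it was 1.00 with every cell weighted equally and 0.89 after thinning. Gzmb was at 3438 CPM (3238 to 3648) for control against 3724 CPM (3533 to 3922) for knockdown cells, found in 75% and 83.9% of cells. Prf1 was found in 59.6% (45.1 to 73.0) of control and 74.2% (61.5 to 84.5) of knockdown NK cells, with overlapping intervals. Ifng had 65 and 108 UMIs, or 203 and 282 CPM, a log2 ratio of 0.47 (-0.16 to 1.12), which was not distinguishable from 0 at this depth. The Ifng ratio was 0.75 with no doublet removal or no cell filter, 0.90 with Scrublet's own threshold and 0.74 with every cell weighted equally, each past 1.5-fold. Fasl had 12 and 14 UMIs.

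In other Cd3-positive cells Gzma was again lower in the knockdown library. It had 673 UMIs in 40 of 267 control cells and 72 UMIs in 13 of 225 knockdown cells. Its level was 441 CPM (408.4 to 475.8) for control cells against 91.4 CPM (71.5 to 115) for knockdown cells, giving a log2 ratio of -2.27 (-2.73 to -1.83). The shares were 14.98% (10.9 to 19.8) and 5.78% (3.11 to 9.68), whose intervals did not overlap. With cells thinned to 2000 UMIs, which left out 122 control and 120 knockdown cells, they were 12.4% (7.53 to 18.9) and 3.81% (1.05 to 9.47), and these intervals overlapped. A single cell gave 16.2% of the control UMIs, and a single cell gave 50% of the knockdown UMIs; without these 2 cells the ratio was -3.02. Cells with an NK gene UMI, 30 control and 28 knockdown, held 41.6% and 63.9% of the Gzma UMIs, and without them the ratio was -2.89. Without cells that carried at least 2 macrophage UMIs it was -2.34.

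The other effector genes of that class need its marker levels beside them. The 8 T cell markers themselves had a log2 ratio of 0.72 there (2110 CPM in the control, 3485 CPM in the knockdown library), and the median cell had 2174 and 1873 UMIs. Cd3d, Cd3e and Cd3g among them were used to select the class. Outside the rule, Trac was at 180.9 and 382.2 CPM, Trbc1 at 147.5 and 302.2 CPM and Trbc2 at 410.3 and 657.7 CPM. Cd2 was at 180.9 and 275.5 CPM and Lck at 142.2 and 243.8 CPM. Nkg7 had a log2 ratio of 0.66 (0.38 to 0.94), at 306.8 and 485 CPM, while its share of positive cells was 49.06% and 48.9%. Ifng had a log2 ratio of 0.74 (0.34 to 1.15), at 143.6 and 240.0 CPM, while its share was 35.96% and 32.9%. With cells thinned to 2000 UMIs these ratios were 0.20 and 0.01. Gzmb was found in 38.2% (32.4 to 44.3) of control and 28.9% (23.1 to 35.3) of knockdown cells, with 593 and 392 UMIs, and its log2 ratio of 0.36 (0.09 to 0.62) turned below 0 in 4 of 12 alternatives. After thinning, the Gzmb shares stood the other way round, at 29.0% (21.7 to 37.1) and 32.4% (23.6 to 42.2), and in both comparisons the intervals overlapped. Gzmk had 46 UMIs in 31 control cells and 14 UMIs in 8 knockdown cells, or 30.2 and 17.8 CPM, and its shares were 11.6% (8.03 to 16.1) and 3.56% (1.55 to 6.89). These intervals did not overlap, but after thinning they did, with shares of 7.59% (3.85 to 13.2) and 2.86% (0.593 to 8.12), and the range of its log2 ratio of -0.76 was -2.05 to 0.43. Prf1 and Fasl had ratios of 0.44 (-0.51 to 1.38) and 0.58 (-0.50 to 1.64). By the 1.5-fold rule 2 of the 7 genes were higher, against 10.8% of 6446 genes, and 2 were lower, against 4.87%. With Scrublet's own threshold Prf1 (0.86) and Fasl (1.03) passed it as well, and Gzmk (-0.40) did not. The share of all genes past 1.5-fold was not computed with that threshold here either.

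CD4 T cells were few, so counts rather than levels limit what they show. Only Gzmb and Nkg7 reached 50 UMIs, and 1 of these 2 was higher and 0 lower past 1.5-fold, against 12.8% and 9.93% of 695 genes. Gzmb had 11 UMIs in 6 of 38 control cells and 52 UMIs in 4 of 29 knockdown cells, 31 of them in 1 cell. Its level was 81.1 CPM (40.5 to 145) for control cells against 558 CPM (416.6 to 731) for knockdown cells, a log2 ratio of 2.78 (1.52 to 4.18), while the shares were 15.8% and 13.8%. The ratio fell to 1.05 with a Cd3 sum of at least 1 and to 1.00 (0.11 to 1.91) with no Cd3 condition, where Gzmb had 36 UMIs in 109 control cells and 52 UMIs in 82 knockdown cells. Nkg7 had 76 and 49 UMIs, at 560 CPM (441 to 701) and 526 CPM (389 to 695). Ifng had 27 and 15 UMIs, at 199 and 161 CPM. Prf1 had no control UMI and 1 knockdown UMI, Fasl had 3 and 6 UMIs, and Gzmk had 5 and 1.

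**Figure D4:**
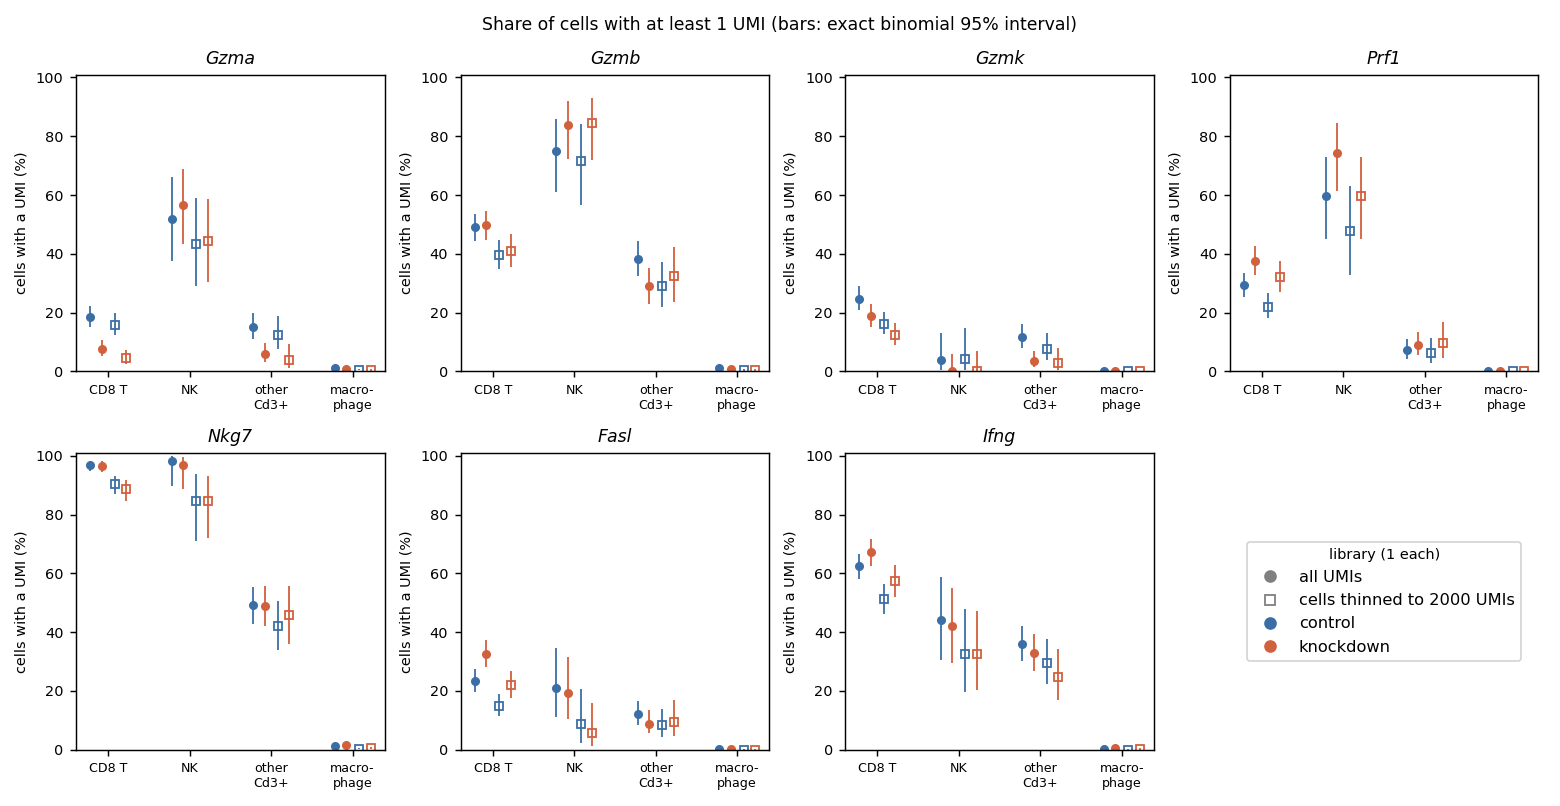
Percentage of cells with at least 1 UMI of each gene in CD8 T cells, NK cells, other Cd3-positive cells and macrophages, for the control and the knockdown library, with exact binomial 95% intervals; open squares are cells thinned to 2000 UMIs. Gzma-positive shares are lower in the knockdown library in both T cell classes, also after thinning, and Nkg7 lies between 96.6% and 98.1% in CD8 T and NK cells of both libraries before thinning and between 84.6% and 90.5% after it.

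The genes were also read together within single cells. A median CD8 T cell had 3 of the 7 genes detected in each library, and 2 in the control and 3 in the knockdown cells after thinning. Of control CD8 T cells, 33.7% had 4 or more and 6 cells had none, beside 38.4% and 5 knockdown cells. Thinned, 22.3% and 26.7% had 4 or more, and 2.82% (11 control cells) and 7.30% (23 knockdown cells) had none. Among other Cd3-positive cells 12.7% of control and 6.22% of knockdown cells had 4 or more, or 8.97% and 4.76% after thinning. These differences were not tested. Only 4 control cells and no knockdown cell had all 7.

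Shares of CD8 T cells with the other granule genes are given for Gzma-positive cells and for the rest; these differences, and those in NK cells, were not tested. In the control library 84.4% of the 90 Gzma-positive cells had a Gzmb UMI, against 40.9% of the 394 others, and 52.2% had a Gzmk UMI, against 18.5%. A Prf1 UMI was found in 21.1% of the Gzma-positive cells, against 31.2% of the others, with a median of 2904.5 UMIs per cell against 3312. The knockdown library had Gzmb in 64.5% of its 31 Gzma-positive cells against 48.6%, Gzmk in 48.4% against 16.3% and Prf1 in 16.1% against 39.4%. After thinning, Prf1 was found in 11.3% of Gzma-positive and 24.1% of other control CD8 T cells, and in 2 of 14 against 32.9% in the knockdown library. Seen from Prf1, 19 of 142 Prf1-positive control cells and 5 of 155 such knockdown cells had a Gzma UMI. The Gzma-positive knockdown cells were shallower than the rest, with a median of 2367 against 3106 UMIs.

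In NK cells Prf1 was found in 77.8% of the 27 Gzma-positive control NK cells, against 40% of the 25 others. In the knockdown library it was found in 85.7% of 35, against 59.3% of 27. After thinning, the control shares were 65% against 34.6%, and the knockdown shares 69.6% against 51.7%. Of Gzmb-positive control CD8 T cells 34.2% had Prf1, against 24.7% of the rest, and of the knockdown cells 46.8%, against 28.5%. Thinned to 2000 UMIs, these shares were 23.9% against 20.9% for the control and 45.7% against 22.6% for the knockdown library. In NK cells they were 64.1% against 46.2% for the control and 80.8% against 40% for the knockdown library, from 13 and 10 Gzmb-negative cells. After thinning the NK shares were 54.5% against 30.8% and 63.6% against 37.5%, the last from 8 cells.

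Havcr2, which encodes the checkpoint receptor Tim-3 of chronically stimulated T cells, was used to divide the CD8 T cells. A Havcr2 UMI was found in 81 of 484 control CD8 T cells (16.7%, 13.5 to 20.4) and in 114 of 412 knockdown CD8 T cells (27.7%, 23.4 to 32.3). These cells were deeper than the rest, with medians of 5014 and 4213 UMIs against 2956 and 2802. At least 2 macrophage UMIs were carried by 172 of 484 control and 123 of 412 knockdown CD8 T cells. The part of macrophage RNA and of depth in this division was not tested. With Havcr2, Prf1 reached 374.5 CPM (326.5 to 427.7) among control against 824 CPM (755.7 to 896.8) among knockdown cells, a log2 ratio of 1.14 (0.82 to 1.46). In Havcr2-negative cells Prf1 was at 113 CPM (98.4 to 129) and 181 CPM (159 to 205), a log2 ratio of 0.68 (0.30 to 1.06). Prf1 was thus higher in Havcr2-positive cells of each library, and higher in the knockdown library within each subset.

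Gzmb had ratios on opposite sides of 0 in these subsets, a difference that was not tested. In Havcr2-positive cells it was at 484.5 CPM (429.6 to 544.4) for control cells against 964 CPM (889.9 to 1042) for knockdown cells, giving a log2 ratio of 0.99 (0.71 to 1.28). In Havcr2-negative cells it was at 428 CPM (399.8 to 458) and 358 CPM (327 to 391.7), a log2 ratio of -0.26 (-0.49 to -0.03). The knockdown cell with 141 Gzmb UMIs was Havcr2-positive, and without the highest cell of each library the ratios were 0.78 and -0.24. Weighting each cell equally gave 0.95 and -0.21. A Gzmb UMI was found in 50.6% (39.3 to 61.9) of control and 64.04% (54.5 to 72.8) of knockdown Havcr2-positive cells, whose intervals overlapped. With Havcr2, Gzma reached 304 CPM among control against 38.4 CPM among knockdown cells, where only 3 of 114 cells had it against 15 of 81. In Havcr2-negative cells it was at 434 and 178 CPM, a log2 ratio of -1.29 (-1.58 to -1.01). Ifng had a log2 ratio of 0.17 (-0.10 to 0.43) in Havcr2-positive cells and 0.33 (0.11 to 0.55) in the others; without the highest cells, 1 of which held 117 control UMIs, these were 0.51 and 0.35.

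**Figure D5:**
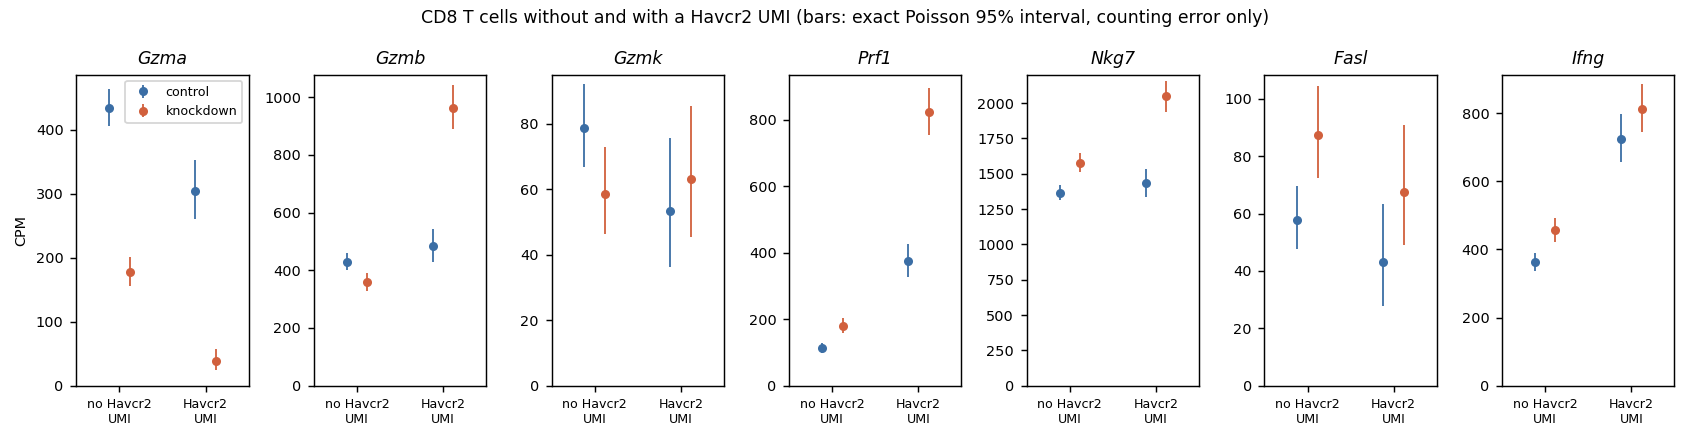
CPM of the 7 genes in CD8 T cells without and with a Havcr2 UMI, control and knockdown library, with exact Poisson 95% intervals. Gzmb of the knockdown library lies above the control only in Havcr2-positive cells (964 against 484.5 CPM), Prf1 lies above it in both subsets, and Gzma lies below it in both.

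Among the other granzymes, Gzmc to Gzmg are close relatives whose reads can be shared between copies, so their values are uncertain; Gzmm was the sixth gene of this list. In CD8 T cells 4 of these 6 genes reached 50 UMIs, 3 were higher and 1 was lower past 1.5-fold, against 5.68% and 2.58% of all genes tested, with a median log2 ratio of 2.13 beside 0.06 over all genes. Gzmd had 42 control and 177 knockdown UMIs, of which 143 lay in 1 cell. Gzme had 25 and 117 UMIs, 93 of them in 1 cell. Gzmf had 158 and 440 UMIs in 19 and 17 cells. Gzmc was lower, with 380 and 185 UMIs at a log2 ratio of -0.69 (-1.05 to -0.33), while 1 control cell held 188 of those UMIs. In NK cells 4 of the 5 that reached 50 UMIs were higher past 1.5-fold and none was lower, against 6.8% and 7.73%. Gzmf had 91 UMIs in 2 control cells and 1978 UMIs in 7 knockdown cells, 1002 of them in 1 cell, and Gzmg had 159 UMIs in 4 and 732 UMIs in 7 cells, with 144 and 324 of them in 1 cell each. Gzmc was found in 38 of 52 control and 39 of 62 knockdown NK cells, at 17527 and 14635 CPM. Gzmd had 517 UMIs in 12 and 941 UMIs in 20 NK cells, with 213 and 319 in the highest cell, and Gzme 109 UMIs in 11 and 487 UMIs in 17, with 45 and 125 in the highest cell. Gzmd and Gzmf also had more stray UMIs in cells with no leukocyte gene of the knockdown library (21 and 77, 6 and 68). In other Cd3-positive cells 2 of the 6 reached 50 UMIs, none was higher and 1 was lower, against 10.8% and 4.87%. That gene was Gzmd, with 51 UMIs in 6 control cells, 33 of them in 1 cell, and 1 UMI in the knockdown library. None reached it in CD4 T cells.

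Of 11 genes that load, release or restrain granules, 1 was higher past 1.5-fold in CD8 T cells and none was lower, against 5.68% and 2.58%, with a median log2 ratio of 0.25 beside 0.06 over all genes. Stx11, a syntaxin needed for granule fusion, had 70 and 94 UMIs (27.4 and 47.0 CPM) and a log2 ratio of 0.78 (0.13 to 1.43). Macrophages held Stx11 at 11.9 and 19.4 CPM and cells with no leukocyte gene at 29.5 and 36.4 CPM, whose part in this value was not tested. In NK cells 1 of the 7 that reached 50 UMIs was higher and none was lower, against 6.8% and 7.73%. That gene was Ctsc, the protease that activates granzymes, at 93.7 and 339.5 CPM, a log2 ratio of 1.86 (1.09 to 2.67). Macrophages held Ctsc at 1556 and 1494 CPM, and the macrophage markers of the NK class differed as given above, whose part in this value was not tested. Of the 9 that reached 50 UMIs in other Cd3-positive cells, 3 were higher past 1.5-fold and none was lower, against 10.8% and 4.87%. Among them Srgn, the proteoglycan core of the granule, had separate intervals and a log2 ratio of 0.63 (0.45 to 0.80), beside the T cell marker ratio of 0.72 in that class, and macrophages held it at 1287 and 1235 CPM. In CD4 T cells 2 of the 11 reached 50 UMIs and none passed 1.5-fold, against 12.8% and 9.93%.

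Among 10 other cytokines, chemokines and death ligands, Ccl3 and Ccl4, chemokines that draw in monocytes and T cells, were higher in CD8 T cells of the knockdown library. Ccl3 was at 99.2 and 245.3 CPM, a log2 ratio of 1.31 (1.00 to 1.62), in 79 and 124 cells. Ccl4 was at 557 and 927 CPM, a log2 ratio of 0.74 (0.59 to 0.88). Of this list 8 genes reached 50 UMIs in CD8 T cells, 3 were higher past 1.5-fold and none was lower, against 5.68% and 2.58%, with a median of 0.23. Macrophages, with Ccl4 at 1959 and 2737 CPM and Ccl3 at 276.9 and 361.9 CPM, also had more of both in the knockdown library. So did cells with no leukocyte gene, with Ccl4 at 53.3 and 83.8 CPM and Ccl3 at 7.03 and 10.8 CPM. The part of their UMIs in the CD8 T values was not tested. In NK cells 4 of the 6 that reached 50 UMIs were higher and 1 was lower, against 6.8% and 7.73%. Ccl4 had a log2 ratio of 2.03 (1.66 to 2.41) there, with 196 of 609 knockdown UMIs in 1 cell. The macrophage markers of the NK class, 290.4 and 4254 CPM, moved with it, and their part in this value was not tested. Xcl1, a chemokine for cross-presenting dendritic cells, had 0.77 (0.51 to 1.03) in NK cells, while Ltb, which encodes lymphotoxin beta, had -1.14 (-1.72 to -0.57). In other Cd3-positive cells 5 of 7 were higher and none was lower, against 10.8% and 4.87%, beside the T cell marker ratio of 0.72. Of the 5, Tnf, Xcl1, Ccl3 and Ccl4 had separate intervals. Macrophages held Tnf at 265.6 and 365.3 CPM, and the macrophage markers of the class were at 3007 and 3902 CPM. The part of macrophage UMIs in the Tnf, Ccl3 and Ccl4 values of this class was not tested. In CD4 T cells 2 of 4 were higher and 1 was lower, against 12.8% and 9.93%. Ccl4 had 46 UMIs there in 9 control and 114 UMIs in 7 knockdown cells, with 16 and 45 of them in the highest cell. Ccl5 had 235 and 100 UMIs in 25 and 13 cells. The macrophage markers of the CD4 T class summed to 2890 and 2939 CPM, and the part of macrophage UMIs in these values was not tested.

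Of 15 transcription factors of effector lymphocytes, all reached 50 UMIs in CD8 T cells, 1 was higher past 1.5-fold and none was lower, against 5.68% and 2.58%, with a median log2 ratio of 0.15. Irf8 was that gene, at 158 and 246 CPM, a log2 ratio of 0.64 (0.37 to 0.91), and macrophages held it at 255.9 and 237.5 CPM. Tbx21, which encodes T-bet, a driver of Ifng and Prf1 transcription, had a log2 ratio of 0.37 (0.08 to 0.66), and Eomes, its relative, 0.15 (-0.56 to 0.87). Of the 12 that reached 50 UMIs in NK cells, 2 were higher and none was lower, against 6.8% and 7.73%. Zeb2, a partner of T-bet in terminal differentiation, had separate intervals in NK cells (0.90, 0.03 to 1.79), and macrophages held it at 643 and 687.7 CPM. Of 12 in other Cd3-positive cells 4 were higher and none was lower, against 10.8% and 4.87%. Id2 and Stat4 had separate intervals there, at 0.67 (0.35 to 0.98) and 0.89 (0.36 to 1.42), beside the T cell marker ratio of 0.72. Of 10 receptors none passed 1.5-fold in CD8 T or NK cells, where 9 and 4 reached 50 UMIs. Of all genes tested, 5.68% were higher and 2.58% lower in CD8 T cells, and 6.8% and 7.73% in NK cells. Of 9 in other Cd3-positive cells 3 were higher and none was lower, against 10.8% and 4.87%. Separate intervals were found for Il18rap, a subunit of the interleukin-18 receptor, at 0.95 (0.04 to 1.87), and for Il2rg, the common gamma chain, at 0.69 (0.07 to 1.31), beside the T cell marker ratio of 0.72. In CD4 T cells 1 transcription factor and 1 receptor reached 50 UMIs, and neither passed 1.5-fold, against 12.8% higher and 9.93% lower.

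The genes whose levels followed each effector gene most closely were sought over 16 points, namely CD8 T, NK, CD4 T and other Cd3-positive cells (the last pair split by Foxp3 and by Trdc), macrophages and cells with no leukocyte gene in the 2 libraries, by Pearson correlation of log2(CPM + 10) among 5729 genes with at least 200 lymphocyte UMIs. The points share libraries and the depth of their class, and 2 of them hold 2 and 3 cells, so the correlations are a description. Klre1 is a gene of the NK rule, and macrophages and cells with no leukocyte gene hold none of it by selection. Its correlations with Gzma and Prf1 are therefore partly set by the rules. The closest were Gm36723 (r = 0.94), Gzmc and Klre1 for Gzma, Cst7 (0.95), Hsd11b1 and Rhof for Gzmb, and Nrn1 (0.92), Themis and Gm44174 for Gzmk. For Prf1 they were Sytl2 (0.87), Styk1 and Klre1, for Nkg7 Il2rb (0.99), Tnfrsf9 and Pglyrp1, for Fasl Sla2 (0.95), Sytl3 and Abcb1a, and for Ifng Stat4 (0.96), Ms4a4b and Vps37b. Cst7 encodes an inhibitor of granule cathepsins, Sytl2 a protein that ties granules to the membrane, Il2rb a chain of the receptor for interleukins 2 and 15, and Stat4 the transducer of interleukin 12. Without the 2 points with a Foxp3 UMI the closest gene stayed Gm36723 for Gzma, Nrn1 for Gzmk and Il2rb for Nkg7, and became Gem for Gzmb, Klre1 for Prf1, Tnfrsf9 for Fasl and Nkg7 for Ifng.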

How the data were processed

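Single-cell RNA counts of mouse tumour tissue, 1 control and 1 Gfpt2 knockdown library, were analysed. The authors deposited raw UMI counts, not normalised, as integer matrices of genes by cells, per the file headers. Cell Ranger is named as 6.1.0 in the file headers and as 3.1.0 in the submitters' processing notes; the genome build and annotation are not given in the sources used here, so coordinates come from the RefSeq promoter table (GRCm38.p6), in which all 7 genes were matched by symbol.

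Cells with under 200 genes or over 20% mitochondrial UMIs were left out. Doublets were taken as the cells with the highest Scrublet scores (scanpy 1.11.5) at 0.8% per 1000 cells, which took out 1148 and 1322; the automatic Scrublet cut would have taken 8.57% of the control and 19.05% of the knockdown cells. Median cells had 10312 and 7496 UMIs. The CPM and ratios were computed from summed counts with Python 3.11.15, numpy 2.4.6, pandas 2.3.3 and scipy 1.17.1, with exact Poisson intervals for counts and Clopper-Pearson intervals for shares, both at 95%. PCR copies are removed by UMIs, and intervals cover counting error only. Genes with at least 50 UMIs over both libraries in a class were called where the ratio passed 1.5-fold, a description without replicates. The code was tested on simulated data. Groups came from the treatment labels.

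The members and gene lists were chosen with earlier results of these data known. All 7 genes are named in every class. From each list, genes past 1.5-fold with Poisson intervals that do not overlap are named, at most 6 per list and class; Tbx21, Eomes, Gzmc in NK cells and Ccl5 in CD8 T cells were added after their values were seen. For the likeness measure the rule takes the 3 genes with the highest correlation, with r printed for the first. Tcrg-C1, Tcrg-C2 and Tcrg-C4 were not matched among the symbols.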

Additional observations from a re-analysis of the deposited data

Results flagged for a closer look

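Gzma differed between classes. Its log2 ratio in CD8 T cells minus that in NK cells was -1.81, and its ratio in NK cells minus that in other Cd3-positive cells was 2.47, with the knockdown library the lower one in both T cell classes and not in NK cells. With 1 library per group these differences were not tested. The NK value rests on 27 control and 35 knockdown cells with the gene. The NK ratio was 0.20 and lay between 0.22 and 1.87 over 9 alternatives.

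Gzmb differed between CD8 T cells with and without a Havcr2 UMI. The ratio in the first minus that in the second was 1.25, and the 2 ratios lay on opposite sides of 0. This difference was not tested either. The highest knockdown cell, with 141 UMIs, was in the first subset.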

How the results depend on the processing

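Gzma in CD8 T and in other Cd3-positive cells and Prf1 in CD8 T cells kept their direction in all 12 alternatives. Those that left out T cells with NK gene UMIs, left out the highest cell of each library or dropped the Cd3 condition for CD4 T cells were chosen after seeing the data. Of the alternative log2 ratios, 196 stayed within the counting range, 39 moved outside it and 4 changed the sign of a ratio whose range had excluded 0, all for Gzmb in other Cd3-positive cells: -0.043 with a Cd3 sum of at least 1, -0.27 with macrophage UMIs left out, -0.33 with every cell weighted equally and -0.062 when thinned. The cause was not tested.

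Scrublet's own threshold, which removed more knockdown cells, gave in CD8 T cells -1.17 for Gzma, 0.66 for Gzmb, 1.60 for Prf1, 0.74 for Nkg7 and 0.81 for Ifng, in NK cells 0.51 for Gzma, 0.28 for Gzmb and 0.28 for Nkg7, and 1.06 for Nkg7 in other Cd3-positive cells. Every cell weighted equally gave -1.11 for Gzma and 0.16 for Gzmb in CD8 T cells, 1.00 for Gzma and 0.30 for Nkg7 in NK cells and 0.027 for Nkg7 in other Cd3-positive cells. Thinning gave -2.76 for Gzma and 0.15 for Gzmb in CD8 T cells, 0.89 for Gzma in NK cells, and -5.13 for Gzma, 0.20 for Nkg7 and 0.010 for Ifng in other Cd3-positive cells. A Cd3 sum of at least 4 gave -1.99 for Gzma in CD8 T and -3.26 in other Cd3-positive cells. A sum of at least 1 gave 0.094 for Nkg7 and 0.074 for Ifng in the latter. Leaving out cells with macrophage UMIs gave -1.32 for Gzma in CD8 T cells, and 1.87 for Gzma and 0.27 for Nkg7 in NK cells. Leaving out T cells with an NK gene UMI gave -1.90 for Gzma, 0.10 for Gzmb and 0.55 for Ifng in CD8 T cells and -2.89 for Gzma in other Cd3-positive cells. No doublet removal and no cell filter both gave 0.32 for Gzmb in NK cells and -1.63 for Gzma in other Cd3-positive cells. Without the highest cells these were 0.33 and -3.02.

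The counts of genes past 1.5-fold moved with the UMI minimum and the fold. In CD8 T cells 489 were higher and 222 lower, with 956 and 520 at a minimum of 20 UMIs, 3423 and 3349 at 1 UMI, and 81 and 36 past 2-fold. In NK cells 160 were higher and 182 lower, with 617 and 710, 3961 and 3458, and 57 and 44. In other Cd3-positive cells 698 were higher and 314 lower, with 1311 and 782, 4182 and 3790, and 112 and 65.

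No paired analysis was possible because each group has 1 library and the labels carry no replicate numbers. Leaving out a replicate could not be done for the same reason. Depth limits Gzmk and Fasl in NK cells and 5 of the 7 genes in CD4 T cells, which had under 50 UMIs.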

Other observations

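Within CD8 T cells, those with a Tcf7 UMI, a factor of stem-like and memory T cells, were 45 of 484 control cells and 26 of 412 knockdown cells. Nkg7 was at 572 and 735 CPM in them, below the 1537 and 1849 CPM of Tcf7-negative cells, and Prf1 was found in 3 cells of each library. Nkg7 was detected in 97.8% and 100% of the Tcf7-positive cells and in 96.8% and 96.4% of the others. It had 5.41 and 6.04 UMIs per Nkg7-positive cell among the former and 7.72 and 8.89 among the latter, and the Tcf7-positive cells were deeper, with medians of 4106 and 3386.5 UMIs against 3115 and 3086. Cells with at least 2 UMIs of 6 cell division genes made up 33.3% (29.1 to 37.7) of control and 27.4% (23.2 to 32.01) of knockdown CD8 T cells. Gzma had a log2 ratio of -1.80 in them and -1.66 in the other CD8 T cells, and Prf1 was at 121 and 206 CPM in them, against 248 and 569 CPM in the others. The dividing cells were deeper, with medians of 5164 and 5738 UMIs against 2695 and 2681, and a higher total lowers the CPM of a given number of UMIs. A Prf1 UMI was found in 35.4% (28.0 to 43.3) of the dividing and 26.3% (21.6 to 31.5) of the other control cells, and in 32.7% (24.2 to 42.2) and 39.5% (33.9 to 45.3) of the knockdown cells, so the intervals overlapped in each library.

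Among other Cd3-positive cells, those with a Trdc UMI, the constant region of the delta T cell receptor chain, numbered 29 control and 17 knockdown cells. Gzma had 54 UMIs in 4 of the 29 control cells and none in the 17 knockdown cells, which by the limit of 3 counts allows a share of cells with a UMI of up to 17.6%. Gzmb was found in 10 of 29 control cells (34.5%, 17.9 to 54.3) and 12 of 17 knockdown cells (70.6%, 44.04 to 89.7), and Nkg7 in 8 of 29 (27.6%, 12.7 to 47.2) and 16 of 17 (94.1%, 71.3 to 99.85). Only the Nkg7 intervals were apart. The median cell had 2552 and 2907 UMIs.

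CD4 T cells with a Foxp3 UMI numbered 2 and 3, and 1 of the 3 knockdown cells held 18 of the 52 Gzmb UMIs of that class.

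CD8 T cells had less Ccl5, a chemokine stored with granules, in the knockdown library, at 2572 and 1718 CPM with a log2 ratio of -0.58 (-0.67 to -0.50), just short of 1.5-fold. A single control cell held 581 of its 6559 control UMIs. In cells with no leukocyte gene Ccl5 was also lower (171 and 122 CPM), and in macrophages it was higher (400.2 and 480.1 CPM).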
